A study of Mus musculus with 29 samples.

Results

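The chemokines and chemokine receptors of mouse lung tumours are described here across 29 expression arrays. Members were chosen by name: every gene whose annotated symbol begins with Ccl, Cxcl, Xcl, Cx3cl, Ccr, Cxcr, Xcr or Cx3cr followed by a digit. The annotated probe sets held 50 such genes, 33 ligands and 17 receptors. A gene was kept if its probe set exceeded a signal of 100 in at least 6 arrays. This left 40 genes, 28 ligands and 12 receptors, of 18193 genes on the array, of which 13542 passed the same minimum.

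Chemokines are small secreted proteins that bind G protein-coupled receptors and direct the movement of leukocytes along concentration gradients. The families are named for the spacing of conserved cysteines near the amino terminus, and most inflammatory ligands share receptors, whereas homeostatic ligands tend to have a single one. In the lung, epithelial cells and alveolar macrophages are known sources of ligands that draw neutrophils, monocytes and lymphocytes.

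The study profiled 6 TI-KM recurrences, 14 TI-KM primary tumours, 8 TI-K primary tumours and 1 normal lung. TI-KM animals carried CCSP-rtTA, TRE-KrasV12 and TRE-Mad2, and both recurrences and primaries of that name have this genotype. TI-K animals carried CCSP-rtTA and TRE-KrasV12, and the normal lung came from a CCSP-rtTA animal, so every group shared the rtTA driver. CCSP is the promoter of the club cell secretory protein, which directs rtTA to airway and some alveolar epithelium, and rtTA activates TRE transgenes in the presence of doxycycline. All animals were of a mixed 129/Bl6 background, and tumours were labelled as adenocarcinoma/adenoma. The title of the series places the recurrences after withdrawal of the oncogene. Ages, times and the state of the transgenes in each tumour are not given in the labels used here. The normal group is 1 array, so it has no spread of its own, and its comparisons borrow the spread of the tumours.

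Values are MAS5 signals, a background-corrected brightness on a linear scale for each probe set, and all arrays had a 2% trimmed mean of 500.003. Signals of different probe sets depend on their probes, so levels of different genes are not compared. Differences are of log2(signal + 20) from 1 limma model of the 4 groups, with a standard error (SE). A gene was called when its adjusted p, by limma with Benjamini-Hochberg adjustment over 14602 genes, was below 0.05. Folds on this scale understate changes of weak genes.

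The labels name no batch, and the arrays were divided here into 3 sets by the 18S ribosomal control and the title numbers. In 6 TI-KM primaries (numbers 1 to 6) and 4 recurrences (numbers 1 to 4) the 18S signal was 12665 to 24001, and these are called the high-18S arrays. A further 5 TI-K primaries (numbers 1 to 5) carry title numbers well above those of the other arrays. In the 13 remaining tumours the 18S signal was 5939 to 10857. The normal lung had an 18S signal of 12569, above the dividing value of 12000, and was kept apart from the sets. The TI-K primaries and the remaining tumours lie below that value, so they also differ from the normal lung in this control. The median signal of an array was 122 to 170 in the high-18S arrays, 103 to 111 in the TI-K arrays with high title numbers, and 69.9 to 102 in the remaining arrays. No TI-K primary is a high-18S array, so part of any difference between TI-KM and TI-K groups cannot be told apart from this split. A fit with the 3 sets as a block, on the 28 tumours, is given beside each comparison between tumour groups. The set with high title numbers holds only TI-K primaries, so block values against TI-K primaries rest on the 3 remaining ones. They are thus no separate check from the fit of remaining arrays, and few calls there do not show that groups are alike. TI-KM primaries 1 and 2 share a title number and may come from 1 animal. Epithelial markers were present in all tumours, and alveolar type II markers had summed signals of 71182 to 142978 in recurrences, 98342 to 153199 in TI-KM primaries and 116485 to 170468 in TI-K primaries, against 49604 in the normal lung. The probe set of Mad2l1, the mouse gene of the Mad2 transgene, had medians of 611 in recurrences, 730 in TI-KM primaries and 871 in TI-K primaries, against 340 in the normal lung, and the labels do not say whether it also reads the transgene.

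The 10 genes not kept were Ccl1, Ccl7, Ccl11, Ccl24, Ccr3, Ccr8, Ccr9, Ccr10, Xcl1 and Xcr1. Just outside the minimum lay Ccr10, above 100 in 5 arrays, and Xcr1, above it in 4. Just inside lay Ccr4 and Cxcl5, each above 100 in 6 arrays. Of the 40 members, 14 exceeded 100 in all 29 arrays. Ccl2, Ccl20, Ccl25, Ccr1l1, Ccr4, Ccr7, Cxcl5, Cxcr2 and Cxcr5, 9 members in all, reached 6 arrays only with the help of the high-18S arrays. The members lie on 11 chromosomes in the RefSeq gene table of GRCm38.p6, with 10 on chromosome 11, 9 on chromosome 5 and 7 on chromosome 9. Besides these, 4 probe sets that name several chemokine genes could not be given to 1 gene and were left out.

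All 3 tumour groups differed from the normal lung in the same 6 chemokine genes, which were called higher in each. These were the ligands Ccl6, Ccl17, Cxcl3, Cxcl15 and Cxcl17 and the receptor Ccr1. Cxcl12 was called lower in recurrences and in TI-KM primaries, as were 6.06% and 7.16% of all genes. In recurrences 7 of 40 members were called, while 12.5% of all genes were. In TI-KM primaries 7 of 40 were called, with 14.9% of all genes, and in TI-K primaries 6 of 40, with 13.5% of all genes. By direction, 6 members were higher in each group, where 6.4%, 7.69% and 6.7% of all genes were higher in recurrences, TI-KM primaries and TI-K primaries. The median difference of the members was 0.55 in recurrences, 0.35 in TI-KM primaries and 0.10 in TI-K primaries, against 0.14, 0.10 and -0.000882 over all genes in the same order. With remaining arrays only, the member median was -0.21, -0.11 and 0.082 in that order. With high-18S arrays only, it was 0.85 for recurrences and 0.77 for TI-KM primaries. For 9 of the 40 members, the signal minimum was reached only with high-18S arrays, which favoured high values there. The values of 0.55 and 0.35 are thus no support for a rise of the members as a set, or for an order of the groups. The 3 comparisons share the 1 normal array, so their calls are not independent of each other. RNA quality differed as well: the log2 ratio of 3′ to 5′ control signals was 2.59 in the normal lung, against a mean of 1.32 in recurrences. With this ratio as a covariate the call of Cxcl12 in recurrences was lost (limma adjusted p 0.0621). Without recurrence 2 the calls of Cxcl3, Cxcl12 and Cxcl15 in recurrences were lost (adjusted p 0.0590, 0.0578 and 0.0515), and those of Cxcl12 and Cxcl15 also without recurrence 3 or 6.

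Ccl6 and its receptor Ccr1 form a ligand and receptor pair of the mouse that myeloid cells express. Ccl6 signals ran from 2025 to 16453 in recurrences (median 9096), from 3324 to 18740.0 in TI-KM primaries (median 13284) and from 7044 to 27197 in TI-K primaries (median 13734), against 492 in the normal lung. The lowest tumour, recurrence 3, still lay above the normal lung. The log2 difference was 3.89 in recurrences (SE 0.74, limma adjusted p = 0.000484), 4.54 in TI-KM primaries (SE 0.71, adjusted p = 3.29e-05) and 4.74 in TI-K primaries (SE 0.73, adjusted p = 2.66e-05). These are 14.8-fold, 23.3-fold and 26.7-fold higher signals. The additional probe set of Ccl6 gave smaller differences of 2.40, 2.95 and 3.37 in the same order, and it too was above the normal lung in 28 of 28 tumours.

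Ccr1 binds several inflammatory CC ligands and is carried by monocytes, macrophages and neutrophils. Its signals were 279.6 to 795 in recurrences (median 462), 246 to 1177 in TI-KM primaries (median 506) and 327 to 788 in TI-K primaries (median 494), against 67.6 in the normal lung. No tumour group overlapped the normal lung, and the tumour groups overlapped each other. The log2 differences were 2.53 in recurrences (SE 0.52, limma adjusted p = 0.00124), 2.53 in TI-KM primaries (SE 0.50, adjusted p = 0.000612) and 2.56 in TI-K primaries (SE 0.51, adjusted p = 0.000785). The second probe set of Ccr1 did not show this: it gave -0.25, 0.42 and 0.56, and 20 of 28 tumours lay above the normal lung.

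Ccl17, a ligand of Ccr4 made by dendritic cells and macrophages, ran from 198 to 834 in recurrences (median 286), from 290.5 to 1059 in TI-KM primaries (median 579.7) and from 111 to 617 in TI-K primaries (median 294), against 18.3 in the normal lung. Every tumour exceeded the normal lung. The log2 difference was 3.25 in recurrences (SE 0.68, limma adjusted p = 0.00126), 3.91 in TI-KM primaries (SE 0.65, adjusted p = 7.14e-05) and 3.07 in TI-K primaries (SE 0.66, adjusted p = 0.00158). The normal signal lies under the offset of 20, so the size of these differences depends on it. Ccl22, the other ligand of Ccr4, had medians of 132 in recurrences, 137 in TI-KM primaries and 94.1 in TI-K primaries, against 81.5 in the normal lung, and was not called.

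Cxcl17, a mucosal chemokine of airway epithelium, ran from 1237 to 11682 in recurrences (median 2219), from 1145 to 4355 in TI-KM primaries (median 2591) and from 1134 to 3005 in TI-K primaries (median 2233), against 391 in the normal lung. The log2 difference was 2.83 in recurrences (SE 0.70, limma adjusted p = 0.00667), 2.67 in TI-KM primaries (SE 0.68, adjusted p = 0.00609) and 2.39 in TI-K primaries (SE 0.69, adjusted p = 0.0181). Recurrence 2 held the highest value and recurrence 3, at 5286, the next.

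Cxcl15, also called lungkine, is a neutrophil-attracting chemokine that mouse airway epithelium secretes. Signals were 18312 to 25794 in recurrences (median 21424), 20672 to 38530.4 in TI-KM primaries (median 23821) and 22501 to 35391 in TI-K primaries (median 24417), against 12406 in the normal lung. The log2 difference was 0.79 in recurrences (SE 0.25, limma adjusted p = 0.0390), 0.999 in TI-KM primaries (SE 0.24, adjusted p = 0.00461) and 1.06 in TI-K primaries (SE 0.25, adjusted p = 0.00370). These were the smallest of the differences called against the normal lung, and none of the 3 stayed called when arrays were scaled to a common median, where the highest adjusted p was 0.297.

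Cxcl12 was the 1 member below the normal lung in all 28 tumours. It is a stromal and endothelial ligand of Cxcr4. Its signals were 228 to 1349 in recurrences (median 885), 173 to 1243 in TI-KM primaries (median 527) and 448 to 2139.9 in TI-K primaries (median 1408), against 4268 in the normal lung. It was lower by a log2 difference of -2.55 in recurrences (SE 0.85, limma adjusted p = 0.0457) and -2.90 in TI-KM primaries (SE 0.82, adjusted p = 0.0138), and the value in TI-K primaries was -1.86 (SE 0.84, adjusted p = 0.150). In remaining arrays only, the TI-K value was -2.74 and was called (SE 0.86, limma adjusted p = 0.0310), while that of recurrences was -2.50 (adjusted p = 0.0676). The other probe sets differed from this one: one gave -0.46, -0.54 and -0.55, with 23 of 28 tumours below the normal lung, and a weak one gave 0.63, 0.91 and 0.63. Recurrence 1 had 8069 on the first of these, against 945 in the normal lung.

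**Figure D1:**
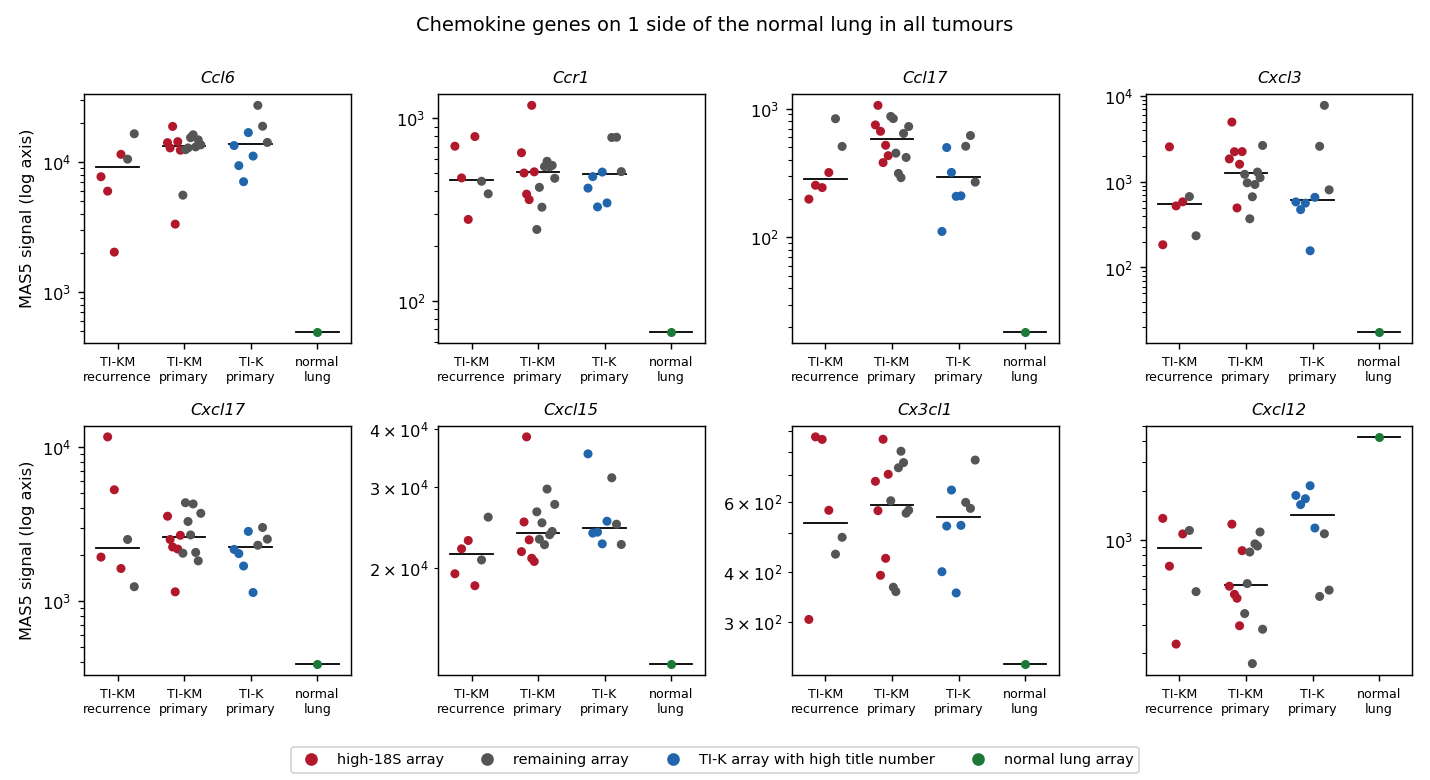
MAS5 signals (log axis) of the 7 chemokine genes above and the 1 below the normal lung in all 28 tumours, by group. Each point is 1 array coloured by array set, and bars are group medians. Ccl6 lies at 2025 or more in every tumour, against 492 in the normal lung, and Cxcl12 lies at 2139.9 or less, against 4268.

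Across the arrays, 7 of 40 members (17.5%) lay above the normal lung in all 28 tumours, as did 12.6% of all genes, and 1 member lay below it in all tumours, as did 12.4% of all genes. The seventh was Cx3cl1, a membrane-bound ligand of epithelium and endothelium, which was 304 to 872 in recurrences, 357 to 859.7 in TI-KM primaries and 354 to 762 in TI-K primaries, against 235 in the normal lung. The adjusted p of Cx3cl1 was 0.0961 in recurrences, 0.0587 in TI-KM primaries and 0.102 in TI-K primaries, by limma. Its other, weaker probe sets lay above the normal lung in 24, 24 and 26 of 28 tumours. Its receptor Cx3cr1, found on monocytes and resident macrophages, was 163 to 826 in recurrences, 216 to 440.1 in TI-KM primaries and 198 to 711 in TI-K primaries, against 225 in the normal lung.

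Some markers of several cell types also differed from the normal lung. Of 12 macrophage markers 6 were called higher than in the normal lung in each tumour group, and the summed signal of the list was 35599 to 87618 in recurrences, 43015 to 96189 in TI-KM primaries and 66312 to 112533 in TI-K primaries, against 28637 in the normal lung. Among them Chil3, a chitinase-like protein of alveolar macrophages, was 4.64, 5.04 and 5.38 higher on the log2 scale in the same order. All 6 epithelial markers were called higher in each tumour group. Of 8 endothelial markers 2 were called lower in recurrences, 4 in TI-KM primaries and 3 in TI-K primaries. The summed endothelial signal was 4056 to 10955 in recurrences, 2687 to 8212 in TI-KM primaries and 3437 to 9900.1 in TI-K primaries, against 17669 in the normal lung. Dendritic cell markers, of which 9 were measured, summed to 15537 to 32022 in recurrences, 12396 to 27710.0 in TI-KM primaries and 11338 to 19764 in TI-K primaries, against 6935 in the normal lung, with 3, 3 and 2 called higher. The 7 fibroblast markers summed to 5935 to 27811 in recurrences, 6089.8 to 25349.8 in TI-KM primaries and 8682 to 27925 in TI-K primaries, against 28806 in the normal lung, and 3 were called lower in TI-KM primaries. The 9 dendritic cell markers had median log2 differences of 0.09 in recurrences, -0.37 in TI-KM primaries and -0.45 in TI-K primaries. Their higher sums were thus not shared by that list as a whole. No marker of these 5 lists was at 0, and their part in the chemokine differences was not tested. In such bulk samples, fewer cells of a type and less RNA per cell cannot be told apart.

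Genes around the chemokine system also differed from the normal lung. Of 14 atypical receptors and relatives, Cmtm8 was called higher in all 3 tumour groups, and Ackr3 and Ppbp were called lower in all 3. Ackr3 is a scavenging receptor for Cxcl12. Its signal was 476 to 1563 in recurrences, 427 to 1584 in TI-KM primaries and 755 to 1376 in TI-K primaries, against 5182 in the normal lung. The log2 difference of Ackr3 was -2.30 in recurrences, -2.67 in TI-KM primaries and -2.39 in TI-K primaries, with limma adjusted p of 0.00257, 0.000269 and 0.00125. Ppbp, a platelet CXC ligand, was lower, with log2 differences of -4.11, -5.05 and -5.56, and the 3 measured platelet markers summed to 387 to 1036 in recurrences, 159 to 1327 in TI-KM primaries and 152 to 558 in TI-K primaries, against 2138 in the normal lung. Of 16 measured inducing cytokines and transcription factors 2 were called higher in each group: Il33, an epithelial alarmin, by 2.29, 3.12 and 2.78, and Myd88, an adaptor of Toll-like and interleukin-1 receptors, by 1.20, 1.38 and 1.29. Of 15 signalling genes Pik3cg, the leukocyte PI3-kinase downstream of chemokine receptors, was called higher in all 3 groups.

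TI-KM recurrences differed from TI-K primaries in 6 of 40 members (15%), while 18.9% of all genes were called. Higher in recurrences were Ccl20, Ccl28, Ccr1l1 and Ccr4, 4 members, where 12.2% of all genes were called higher. Ccl20, Ccr1l1 and Ccr4 reached the signal minimum only with the high-18S arrays, which hold 4 of 6 recurrences and no TI-K primary, so these 3 calls are no support for a difference. Lower were Cxcl1 and Cxcl2, 2 members, where 6.73% of all genes were called lower. With the array sets as a block 0 members and 0.0959% of all genes were called, and 7 members had an unadjusted p below 0.05, all lower in recurrences, while 11.1% of all genes had such a p. In remaining arrays only, 0 members and 0.13% of all genes were called. Both of these fits rest on 3 TI-K primaries, so they are not separate checks. RNA quality also differed: the mean log2 ratio of 3′ to 5′ control signals was 1.32 ± 0.45 in recurrences and 2.16 ± 0.41 in TI-K primaries (SD, n = 6 and 8). With this ratio as a covariate, limma still called Ccl28 and Ccr1l1 (adjusted p 0.0375 and 0.0276) but not Ccr4, Cxcl1, Ccl20 or Cxcl2 (adjusted p 0.0575, 0.0853, 0.117 and 0.218).

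Ccl28 is an epithelial ligand that attracts antibody-secreting cells and some T cells to mucosa. It was 99.7 to 339 in recurrences (median 237), 90.2 to 330.3 in TI-KM primaries (median 147) and 59.2 to 138 in TI-K primaries (median 91.4), against 174 in the normal lung. In 5 of 6 recurrences it exceeded every TI-K primary. The log2 difference between recurrences and TI-K primaries was 1.04 (SE 0.27, limma adjusted p = 0.0110), and with the sets as a block it was 0.43 (SE 0.22, adjusted p = 0.475). Within TI-KM primaries alone, the 6 high-18S arrays lay at 208 to 330.3 and the 8 remaining arrays at 90.2 to 150.3. Against TI-K primaries, the Ccl28 probe set of largest SD gave 0.54 in recurrences and was not called (limma adjusted p = 0.233).

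Ccl20 attracts Ccr6-bearing dendritic cells, B cells and T cells, and inflamed epithelium makes it. Signals in the 6 recurrences were 938, 392, 769, 28.03, 19.6 and 5.02 for numbers 1 to 6. TI-KM primaries ran from 7.87 to 502 (median 53.5) and TI-K primaries from 4.18 to 26.8 (median 13.6), and the normal lung had 14.8. In 4 of 6 recurrences and 9 of 14 TI-KM primaries Ccl20 exceeded every TI-K primary. Recurrence 4, at 28.03, and the highest TI-K primary, at 26.8, lie near the 20th percentile of all signals (19.7). Ccl20 also reached the signal minimum only with the high-18S arrays, so this separation is no support for a difference. The log2 difference between recurrences and TI-K primaries was 2.21 (SE 0.72, limma adjusted p = 0.0318). With the block it was 1.0 (SE 0.94, adjusted p = 0.733), and in remaining arrays only it was -0.30. The call was also lost without recurrence 1, 2 or 3 or TI-K primary 5 (adjusted p 0.0521 to 0.102). TI-KM primaries 8 and 9, at 249.6 and 502, were remaining arrays with high Ccl20.

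Ccr1l1, a Ccr1-like receptor gene of the mouse, was 59.5 to 223 in recurrences (median 152), 26.7 to 226 in TI-KM primaries (median 67.8) and 28.7 to 68.2 in TI-K primaries (median 38.0), against 49.7 in the normal lung. The difference between recurrences and TI-K primaries was 1.29 (SE 0.36, limma adjusted p = 0.0153), and with the block 0.05. Ccr4, the receptor of Ccl17 and Ccl22 on regulatory and type 2 helper T cells, was 20.5 to 173 in recurrences (median 105), 23.8 to 186 in TI-KM primaries (median 54.8) and 10.8 to 65.5 in TI-K primaries (median 28.8), against 48.8 in the normal lung. Its difference was 1.09 (SE 0.36, limma adjusted p = 0.0329), and it was -0.065 once the sets entered as a block and -0.25 in remaining arrays only. The call of Ccr4 was also lost without any 1 of recurrences 1 to 4 or TI-K primaries 2 to 5 (adjusted p 0.0505 to 0.0933). Both receptors exceeded 100 in high-18S arrays only.

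**Figure D2:**
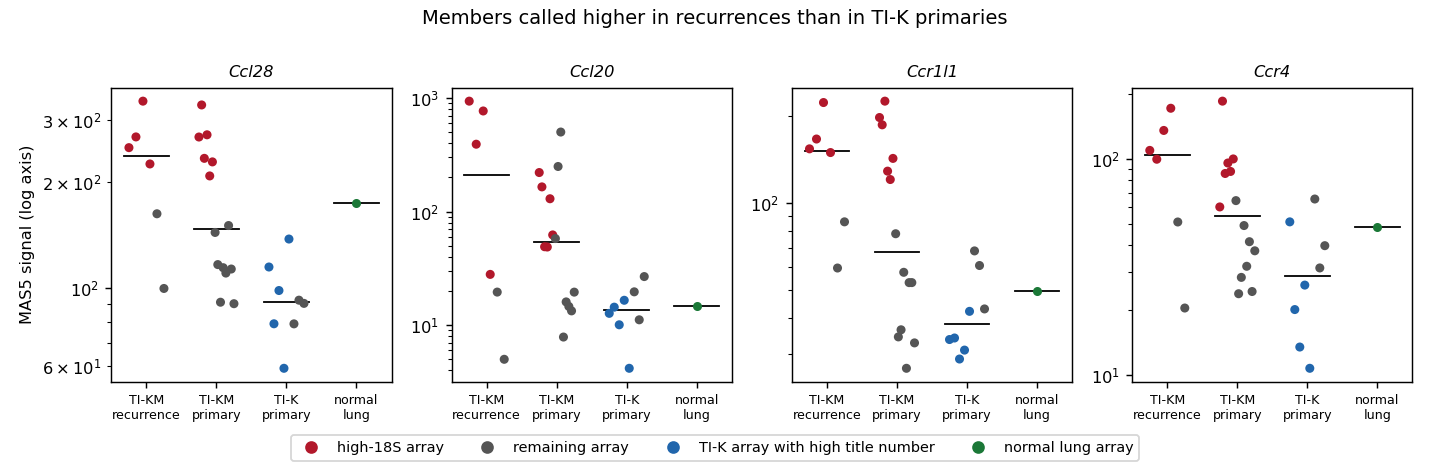
MAS5 signals (log axis) of the 4 members called higher in recurrences than in TI-K primaries, by group, with points coloured by array set and bars at the medians. The high-18S arrays hold most of the high values, and remaining TI-KM arrays lie near the TI-K primaries, apart from Ccl20 in TI-KM primaries 8 and 9.

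Many members differed between the array sets. Between high-18S and remaining TI-KM primaries, 13 of 40 members were called, all higher in the high-18S arrays, where 42.6% of all genes were called and 30% were called higher. The 13 were Ccl2, Ccl4, Ccl25, Ccl27a, Ccl28, Cxcl14, Ccr1l1, Ccr4, Ccr6, Ccr7, Cxcr3, Cxcr5 and Cxcr6, of which 7 are receptors of lymphocytes or leukocytes. Of these, Ccl2, Ccl25, Ccr1l1, Ccr4, Ccr7 and Cxcr5, 6 members, reached the signal minimum only with the high-18S arrays, so the choice of members favoured a higher value there, and their calls are no support for a difference. Ccl2, the main monocyte chemokine, was 107 to 192 in the 6 high-18S arrays and 10.4 to 79.4 in the 8 remaining arrays. Among the other 7, Ccl28 differed by 1.02 (SE 0.16, limma adjusted p = 1.74e-05) and Cxcl14, an epithelial ligand, by 1.11 (SE 0.25, adjusted p = 0.000951). Between high-18S and remaining recurrences 14 of 40 members were called, with 18.8% of all genes, and 6 of these 14 likewise reached the minimum only with the high-18S arrays. Only 2 recurrences are remaining arrays, which limits that comparison. The difference between recurrences and TI-KM primaries did not pass the test of a change between the sets for any member: 0 were called by limma, and 0.0137% of all genes were. At an unadjusted p below 0.05 there were 5 members and 7.2% of all genes.

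Cxcl1 and Cxcl2 were called lower in recurrences than in TI-K primaries, and Cxcl3 was not. The 3 ligands attract neutrophils, bind Cxcr2 and are neighbouring genes on chromosome 5, with Cxcl15 in the same cluster. Sequences of their promoters are shown because the 3 ligands had the most negative values against TI-KM primaries, with Cxcl15 as a neighbour nearer 0. Cxcl5, another Cxcr2 ligand on chromosome 5, had a positive value in that comparison (0.88 with the block, not called). Its promoter is not shown. The RefSeq sequences of GRCm38.p6, all on the plus strand, run from 250 bases before the gene start to 50 bases after it. They lie at chr5:90890995-90891294 (Cxcl1), chr5:90903649-90903948 (Cxcl2), chr5:90785851-90786150 (Cxcl3) and chr5:90794284-90794583 (Cxcl15). Capitals mark the 2 longest runs of letters that the Cxcl1, Cxcl2 and Cxcl3 windows share on this strand, GGGAATTTCCC and CTCCAGACTCCAG.
Cxcl1: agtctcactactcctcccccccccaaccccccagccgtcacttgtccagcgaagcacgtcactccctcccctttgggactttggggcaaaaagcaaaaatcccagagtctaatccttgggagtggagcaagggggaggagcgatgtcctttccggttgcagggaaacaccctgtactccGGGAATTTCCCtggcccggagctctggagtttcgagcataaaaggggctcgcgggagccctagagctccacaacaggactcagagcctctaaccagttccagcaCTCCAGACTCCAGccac
Cxcl2: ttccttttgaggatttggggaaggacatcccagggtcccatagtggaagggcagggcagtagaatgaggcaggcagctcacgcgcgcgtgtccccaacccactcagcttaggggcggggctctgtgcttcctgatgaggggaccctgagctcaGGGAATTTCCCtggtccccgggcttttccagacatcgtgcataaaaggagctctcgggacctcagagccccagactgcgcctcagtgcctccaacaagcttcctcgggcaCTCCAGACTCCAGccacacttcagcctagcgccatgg
Cxcl3: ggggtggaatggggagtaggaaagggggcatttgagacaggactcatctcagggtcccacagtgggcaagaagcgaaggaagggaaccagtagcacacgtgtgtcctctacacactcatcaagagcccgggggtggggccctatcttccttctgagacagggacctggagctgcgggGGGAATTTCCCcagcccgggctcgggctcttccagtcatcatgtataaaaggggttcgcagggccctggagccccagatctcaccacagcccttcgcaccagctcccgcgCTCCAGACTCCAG
Cxcl15: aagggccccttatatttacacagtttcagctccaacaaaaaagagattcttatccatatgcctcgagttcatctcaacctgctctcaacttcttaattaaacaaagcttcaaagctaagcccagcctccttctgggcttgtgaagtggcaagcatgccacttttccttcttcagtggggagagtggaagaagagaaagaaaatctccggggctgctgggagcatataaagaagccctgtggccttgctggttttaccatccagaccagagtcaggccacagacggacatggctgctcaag

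These runs were found in the 3 promoters themselves, as shared stretches of at least 11 bases, so their presence there is how they were chosen. Searched on both strands, GGGAATTTCCC stood in 14 of 32851 promoters of this length (0.0426%) and CTCCAGACTCCAG in 4 (0.0122%). No other of the 31 members with a promoter held either run. The first contains letters that match the consensus of NF-kB, a factor known to induce these ligands, and starts 71 bases before the gene start in Cxcl1, 97 in Cxcl2 and 73 in Cxcl3. The second starts 33, 13 and 37 bases after the gene start in the same order. Cxcl15 holds neither in this window. A match describes letters and is no measurement of binding.

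Cxcl1 was 198 to 1524 in recurrences (median 601), 483 to 2192 in TI-KM primaries (median 1731) and 554 to 3261 in TI-K primaries (median 1639), against 482 in the normal lung. Recurrence 3, at 1524, was the highest recurrence, and the other 5 were at 673 or less. Below every TI-K primary lay 3 of 6 recurrences. The log2 difference between recurrences and TI-K primaries was -1.34 (SE 0.39, limma adjusted p = 0.0179), and with the block it was -0.89 (SE 0.56, adjusted p = 0.582). Without recurrence 1 the call was lost (-1.05, limma adjusted p = 0.0605). Between recurrences and TI-KM primaries it was -1.15 (SE 0.35, adjusted p = 0.154), where the block gave -1.11 (adjusted p = 0.136). In remaining arrays only it was -1.22. An additional probe set of Cxcl1 gave -1.20 against TI-K primaries and -1.25 against TI-KM primaries, and an _x_at one gave -0.28 and -0.33.

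Cxcl2 was 48.3 to 372 in recurrences (median 71.8), 64.3 to 412 in TI-KM primaries (median 235) and 67.5 to 1348 in TI-K primaries (median 252), against 54.8 in the normal lung. The 372 belonged to recurrence 3, and the other 5 recurrences were at 103 or less. The log2 difference between recurrences and TI-K primaries was -1.40 (SE 0.50, limma adjusted p = 0.0463), and the fit with the sets gave -2.40 (SE 0.68, adjusted p = 0.151). Leaving out any 1 of recurrences 1, 2, 4, 5 and 6 or TI-K primaries 1, 2, 5, 6 and 7 ended the call (adjusted p 0.0517 to 0.102). Against TI-KM primaries it was -1.06 (SE 0.45, adjusted p = 0.331), and -1.17 with the block.

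Cxcl3 was 184 to 2554 in recurrences (median 553), 369.7 to 4963 in TI-KM primaries (median 1258) and 157 to 7768 in TI-K primaries (median 619.8), against 17.6 in the normal lung. The log2 difference from the normal lung was 3.89 in recurrences (SE 1.25, limma adjusted p = 0.0377), 5.13 in TI-KM primaries (SE 1.20, adjusted p = 0.00313) and 4.54 in TI-K primaries (SE 1.23, adjusted p = 0.0111). The normal signal lies under the offset of 20, so these differences depend on the offset and no fold is given. Between tumour groups it was not called. Recurrences against TI-K primaries gave -0.65, with a block value of -2.72 (SE 0.75, adjusted p = 0.142), and recurrences against TI-KM primaries gave -1.24 (SE 0.57, adjusted p = 0.363). The TI-K primaries themselves split: the 5 with high title numbers lay at 157 to 658 and the 3 remaining at 804 to 7768, a log2 difference of -2.47 (SE 0.72, limma adjusted p = 0.0350). Cxcl3 was the 1 member of 40 called between those TI-K sets, while 7.74% of all genes were called and 4.6% were called lower.

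**Figure D3:**
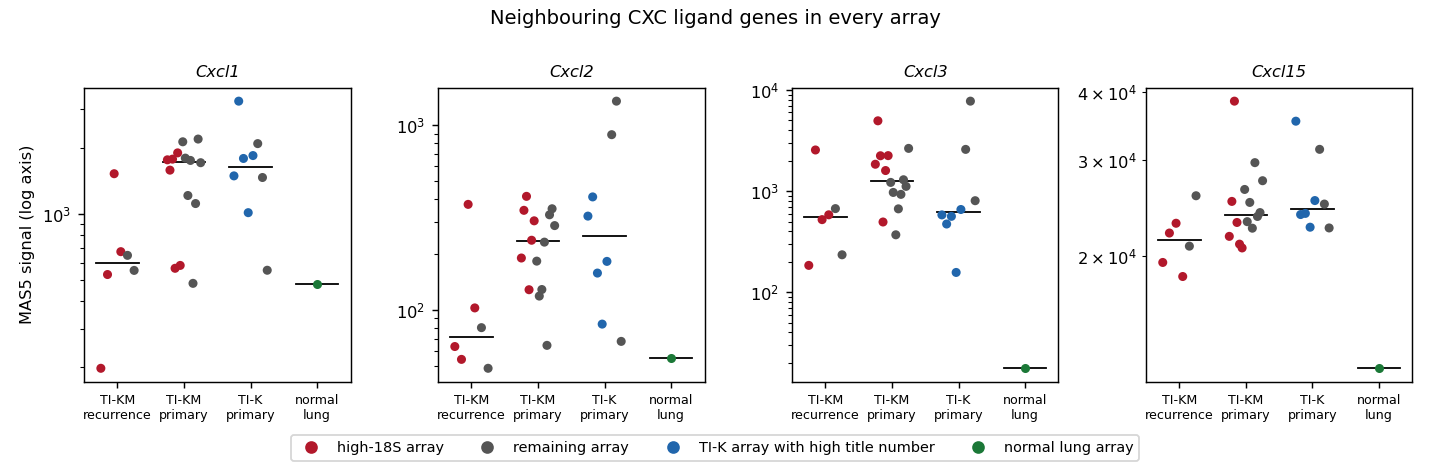
MAS5 signals (log axis) of Cxcl1, Cxcl2, Cxcl3 and Cxcl15 in every array by group, coloured by array set, with bars at the medians. Recurrence medians of Cxcl1 and Cxcl2 (601 and 71.8) lie below those of the TI-KM primaries (1731 and 235), while Cxcl15 medians are 21424 and 23821.

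Cxcr2, the receptor of these ligands on neutrophils, was 13.7, 461, 19.6, 20.7, 8.57 and 7.35 in recurrences 1 to 6, 23.2 to 380.1 in TI-KM primaries (median 67.5) and 25.8 to 235 in TI-K primaries (median 65.5), against 58.9 in the normal lung. Apart from recurrence 2, every recurrence was below every primary. Those recurrence values, 7.35 to 20.7, lie about the 20th percentile of all signals (19.7), and the lowest primary, at 23.2, is close to them. The separation thus lies near the floor and is no support for a difference. Cxcr2 also reached the signal minimum only with the high-18S arrays. The log2 difference between recurrences and TI-KM primaries was -1.004 (SE 0.54, limma adjusted p = 0.453). The 7 measured neutrophil markers summed to 12351 in recurrence 2 and 532 to 5315 in the other recurrences, 831 to 5259.7 in TI-KM primaries and 814 to 3124 in TI-K primaries, against 6382 in the normal lung. Their part in these values was not tested.

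Between recurrences and TI-KM primaries no member was called by limma, while 0.26% of all genes were. RNA quality differed here too: the mean log2 ratio of 3′ to 5′ control signals was 1.32 ± 0.45 in recurrences and 2.16 ± 0.67 in TI-KM primaries (SD, n = 6 and 14). At an unadjusted p below 0.05 there were 7 members, 2 higher in recurrences (Cxcl5 and Cxcr5) and 5 lower (Cxcl1, Cxcl2, Cxcl3, Ccl17 and Ccl27a), and 12.4% of all genes had such a p. By direction, 5.84% of all genes were higher with such a p and 6.6% were lower. Cxcl5 and Cxcr5 reached the signal minimum only with the high-18S arrays, which hold 4 of 6 recurrences and 6 of 14 TI-KM primaries. The choice of members thus favoured higher recurrence values for these 2, which are no support for a difference. Cxcl5, another Cxcr2 ligand, was 5.30 to 267 in recurrences (median 119), 3.52 to 173 in TI-KM primaries (median 34.7) and 12 to 202 in TI-K primaries (median 39.0), against 44.2 in the normal lung. Its difference between recurrences and TI-KM primaries was 1.01 (SE 0.45, limma adjusted p = 0.348). Ccl27a, a keratinocyte-type ligand of Ccr10, was 139 to 376 in recurrences and 183 to 536 in TI-KM primaries, with a block value of -0.56 (SE 0.18, adjusted p = 0.116). With the block, 0.705% of all genes and 0 members were called. In the remaining arrays alone, 0 members and 0.0822% of all genes were called.

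Between TI-KM and TI-K primaries 1 member was called, Ccl28, higher in TI-KM primaries by 0.71 (SE 0.22, limma adjusted p = 0.0475), while 8.01% of all genes were called and 5.5% were called higher. In 8 of 14 TI-KM primaries it exceeded every TI-K primary, and the 6 high-18S arrays were among those 8. The block value was 0.34 (SE 0.19, adjusted p = 0.995). With its probe set of largest SD the value of Ccl28 was 0.48 and was not called (limma adjusted p = 0.241). The call of Ccl28 was lost in 22 of 36 alternative settings. Among these was leaving out any 1 of TI-K primaries 1 to 8 (limma adjusted p 0.0515 to 0.107). Other members nearest to the threshold were Ccl17, 0.84 higher (SE 0.28, adjusted p = 0.0552), and Cxcl12, with -1.04 (SE 0.35, adjusted p = 0.0573). Their block values were 0.43 and -0.16 (limma adjusted p = 0.995 for both). With the block 0% of all genes and 0 members were called in this comparison, and 3 members (7.5%) had an unadjusted p below 0.05, as had 4.84% of all genes. Of these members, Cxcl14 had the lowest p (-1.13, SE 0.31, limma adjusted p = 0.517). The block rests on the 3 remaining TI-K primaries here, so 0 calls do not show that the groups are alike.

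**Figure D4:**
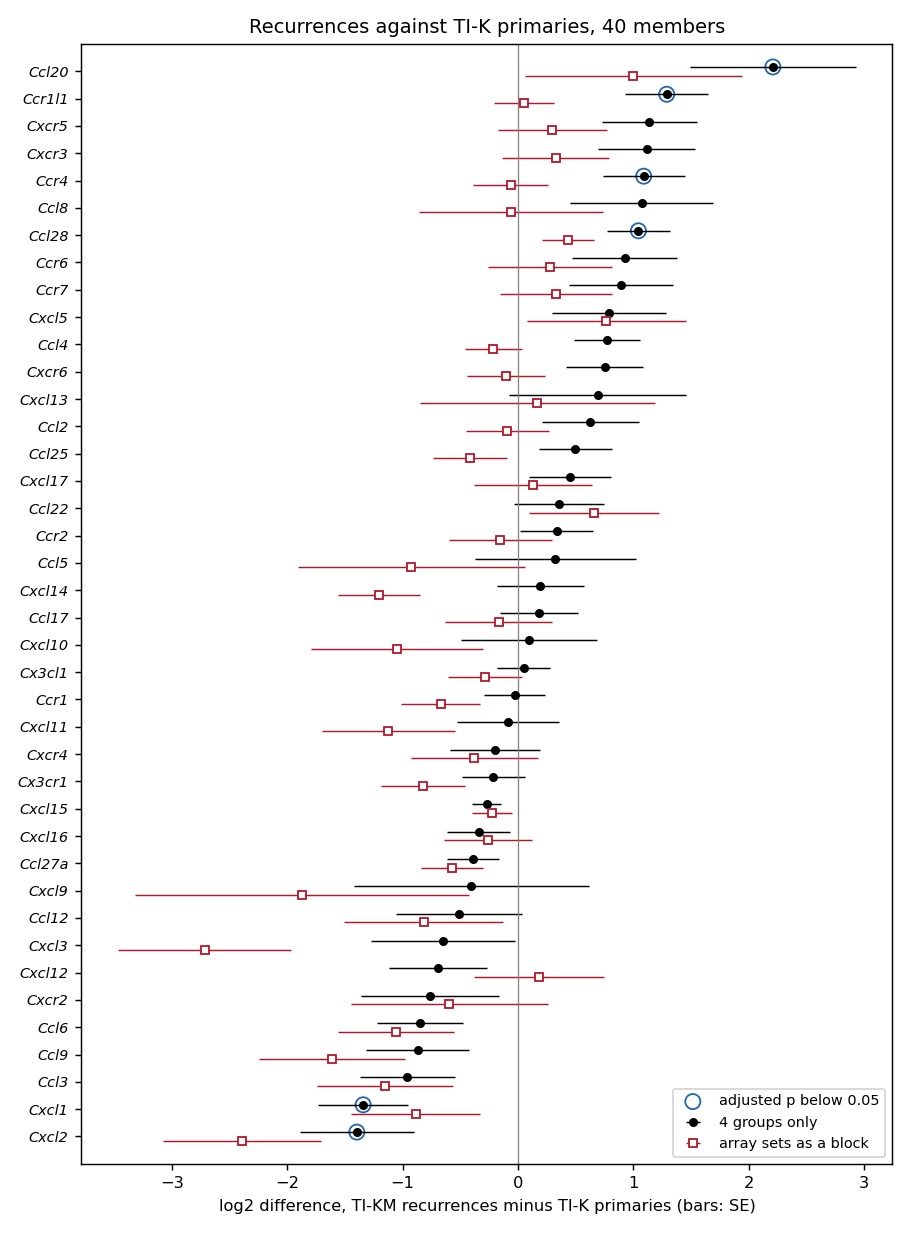
Log2 differences between TI-KM recurrences and TI-K primaries for the 40 members, from the fit of the 4 groups (filled) and with array sets as a block (open squares), with standard errors, and rings on those with an adjusted p below 0.05. The block value of Ccl20, Ccr1l1, Ccr4 and Ccl28 lies nearer 0, and that of Cxcl2 and Cxcl3 (-2.40 and -2.72) farther from it.

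Among related genes, the calls between tumour groups were few. Cmtm6, a membrane protein of the chemokine-like factor family, was 9060.4 to 15674 in recurrences, 8701 to 17656 in TI-KM primaries and 4677 to 10623 in TI-K primaries. It was higher by 0.84 in recurrences (SE 0.19, limma adjusted p = 0.00410) and by 0.78 in TI-KM primaries (SE 0.15, adjusted p = 0.00613) than in TI-K primaries, the 1 gene called higher of 14 in each comparison. Ackr4, a scavenging receptor of Ccl25 and other ligands, was called lower in recurrences than in TI-K primaries (-0.85, SE 0.31, adjusted p = 0.04998). Csf2, the growth factor of granulocytes and macrophages, was 20.7 to 467 in recurrences, 277 to 871 in TI-KM primaries and 271 to 831 in TI-K primaries. It was lower by -1.43 in recurrences than in TI-K primaries (SE 0.42, adjusted p = 0.0188), the 1 call among 16 inducing genes. Of 8 processing genes Adam17, the sheddase of Cx3cl1 and Cxcl16, was called lower in TI-KM than in TI-K primaries (-0.44). Of 15 signalling genes Plcb2, a phospholipase C, was called lower in TI-KM than in TI-K primaries (-0.86), and Elmo1, a Rac activator partner, was called higher in recurrences than in TI-K primaries (0.62). No gene of the 4 lists was called with the block.

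Recurrence 1 held the highest value of the 28 tumours in 18 of 40 members (45%), against 14.8% of all genes. Recurrence 1 is a high-18S array, and among the 18 Ccl20, Ccr7 and Cxcr5 reached the signal minimum only with such arrays. The choice of members favoured a high value there for these genes, so they add no support to the count. The 18 members include attractants and receptors of lymphocytes and of monocytes. Ccl8, a monocyte-attracting ligand that binds Ccr8 in the mouse, was 22704 there and 336 to 1263 in the other 5 recurrences, 305 to 2314 in TI-KM primaries and 371 to 1076 in TI-K primaries, against 455 in the normal lung. Cxcl13, the B-cell attractant made by lymphoid follicle stroma, was 10181 in recurrence 1 and 177 to 4337 in the other recurrences, 104 to 2793 in TI-KM primaries and 163 to 1356 in TI-K primaries, against 463 in the normal lung. Its receptor Cxcr5 was 989 in recurrence 1 and 37.7 to 193 in the other recurrences, 38.1 to 185 in TI-KM primaries and 31.2 to 107 in TI-K primaries, against 114 in the normal lung.

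The receptors of activated and memory lymphocytes were also high in that array. Cxcr3, which binds Cxcl9, Cxcl10 and Cxcl11, was 2359.6 in recurrence 1 and 117 to 344 in the other recurrences. Ccr6, the receptor of Ccl20, was 2935 in recurrence 1 and 93.8 to 412 in the others. Cxcr6, the receptor of Cxcl16, was 678 against 63.7 to 235, and Cxcr4 was 1283 against 82.9 to 165 in the others. Among ligands, Cxcl9, an interferon-induced attractant of T cells, was 2641 against 9.52 to 114, and Ccl5, a T-cell and monocyte attractant, was 2495 against 18.5 to 215 in the other recurrences. Summed markers of B cells and T cells were also highest in recurrence 1, but those of macrophages were not. The 12 macrophage markers summed to 85842 in recurrence 1, within the range of 35599 to 87618 of all recurrences. The 7 measured B-cell markers summed to 61564 in recurrence 1, 5296 to 12508 in the other recurrences, 3248 to 22114 in TI-KM primaries and 4278 to 17042 in TI-K primaries, against 6281 in the normal lung. The 9 measured T-cell markers summed to 8073 in recurrence 1 and 781 to 1356 in the other recurrences, with 705 to 2743 in TI-KM primaries and 671 to 1592 in TI-K primaries, against 1906 in the normal lung. Epithelial markers summed to 18379 there, the lowest of the tumours, with 39513 to 73978 in the other recurrences. The part of lymphocyte content in these values was not tested.

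**Figure D5:**
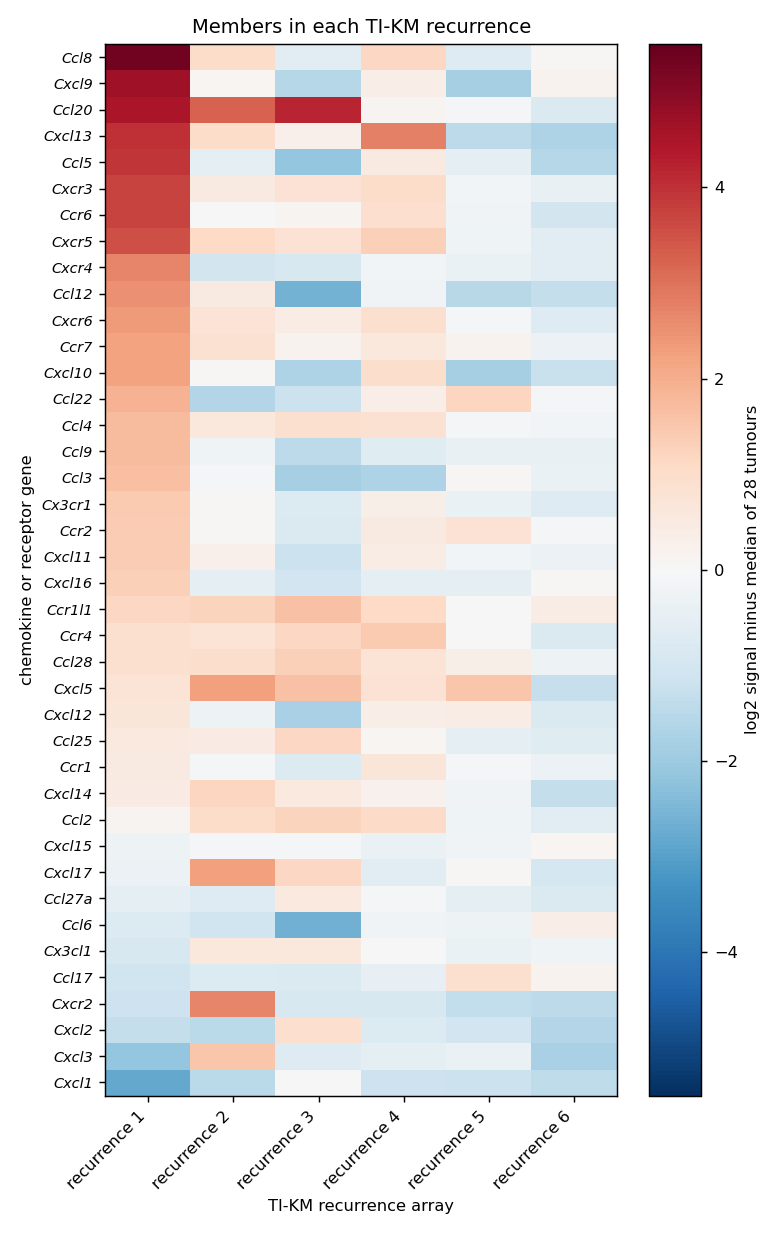
Heat map of the 40 members in the 6 recurrences, as log2(signal + 20) minus the median of the 28 tumours, with genes ordered by their value in recurrence 1. Red cells are above that median and blue cells below it, and Ccl8 is 5.29 above it in recurrence 1, where Cxcl1 is the lowest gene.

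TI-K primary 7 was the highest of the 28 tumours for 5 of 40 members (12.5%), against 0.931% of all genes, and these were Ccl3, Ccl9, Cxcl2, Cxcl3 and Cxcl11. Its Ccl9, a Ccr1 ligand of myeloid cells, was 14357, against 1216 to 6371 in the other TI-K primaries. Recurrence 2 was highest for 4 members (10%), against 7.01% of all genes, and TI-KM primary 3 for 4 (10%), against 12.3%. Both are high-18S arrays. Of their members, Cxcl5 and Cxcr2 in recurrence 2 and Ccl25 and Ccr1l1 in TI-KM primary 3 reached the signal minimum only with such arrays. Across groups Ccl9 was 713 to 6546 in recurrences (median 1489.8) and 1370.1 to 5426 in TI-KM primaries (median 1883), with a median of 2254 in TI-K primaries, against 1186 in the normal lung. It was not called in any comparison, with a block value of -1.61 (SE 0.63, limma adjusted p = 0.315) between recurrences and TI-K primaries.

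The other members varied without a call in the fit of the 4 groups. The interferon-linked ligands Cxcl9, Cxcl10 and Cxcl11 spanned wide ranges within each group: Cxcl9 was 9.52 to 2641 in recurrences, 4.83 to 1470.3 in TI-KM primaries and 7.44 to 1977 in TI-K primaries, and Cxcl10 was 16.2 to 573, 8.06 to 294 and 11.2 to 291 in the same order. Cxcl11 was 39.8 to 329, 52.8 to 536 and 60.1 to 579. The RefSeq gene table lists Cxcl11 as a transcribed pseudogene, so its signal is that of a transcript and may not stand for a protein. For each of these genes the 3 tumour groups overlapped. Ccl5 was 18.5 to 2495 in recurrences, 36.4 to 1103 in TI-KM primaries and 12.8 to 252 in TI-K primaries.

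The monocyte ligands and their receptor Ccr2 were of this kind as well. Ccl2 was 27.6 to 144 in recurrences, 10.4 to 192 in TI-KM primaries and 12.5 to 78.1 in TI-K primaries, against 68.8 in the normal lung. Ccl12, a mouse Ccr2 ligand, was 9.26 to 996, 31.2 to 418 and 80.1 to 318 in the same order, against 15.6 in the normal lung. Ccr2 itself was 119 to 632, 133 to 477 and 133 to 376, against 349. Ccl3 and Ccl4, inflammatory ligands of macrophages, were 10.2 to 315 and 129 to 529.8 in recurrences, 17.4 to 141 and 86.6 to 326 in TI-KM primaries, and 70.3 to 330.4 and 82.6 to 230.0 in TI-K primaries. Ccl4 was close to a call between recurrences and TI-K primaries at 0.77 (SE 0.29, limma adjusted p = 0.0577), where the block value was -0.21 (SE 0.25, adjusted p = 0.792).

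Cxcl16, a scavenger-receptor ligand of Cxcr6, was 391 to 2064 in recurrences, 432 to 1453 in TI-KM primaries and 688 to 1372 in TI-K primaries, against 464 in the normal lung. Cxcl14, an epithelial ligand, was 174 to 1081, 216 to 1177 and 269.8 to 1356 in the same order, against 727. Ccl25, a gut and thymus ligand of Ccr9, was 41.8 to 193, 36.5 to 222 and 28.1 to 90.3, against 89.8 in the normal lung. Ccr7, the homing receptor of naive T cells and migrating dendritic cells, was 39.6 to 328, 6.66 to 151 and 8.71 to 89.6, against 33.4.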

How the data were processed

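Total RNA of 29 mouse lung samples was hybridised to 1-colour arrays. The authors deposited MAS5 intensity values for 45101 probe sets, per the submitters' processing notes, and the deposited intensities of every array had a 2% trimmed mean of 500.003, so they were already scaled. No scanner files were used here. Of the probe sets, 34945 name 1 gene in the platform annotation, 932 several and 9160 none, and 64 are controls.

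A gene was represented by its probe set of highest mean signal. It was tested if its signal passed the array's 40th percentile on 6 or more arrays, which left 14602 genes. Differences of log2(signal + 20) were tested with limma 3.58.1 (lmFit, eBayes with trend) in R 4.3.3 on all 29 arrays as 4 groups, with Benjamini-Hochberg adjustment over those genes. The 3 array sets were drawn from the 18S control and the title numbers. Alternatives covered the offset, filter, scaling, probe set, RNA quality, sets and each array left out. On simulated data, 58 of 100 genes changed 2-fold and 97 of 100 changed 4-fold were recovered between recurrences and TI-K primaries, but 6 and 46 of 100 between recurrences and the normal lung. The members, marker lists and pathway lists were chosen with earlier results of these data known. The genes named are the members and the list genes that were called. The labels do not say that samples came from separate animals, so p-values measure the spread between these samples, and the number of arrays limits the precision. No protein sequences were available, so the planned protein features were not computed.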

Additional observations from a re-analysis of the deposited data

Results flagged for a closer look

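In 8 of 80 member and group combinations the highest or lowest array stood far from the rest of its group on the log2 scale, judged by Dixon's ratio of gap to range in the 6 recurrences and the 8 TI-K primaries, and chance gives about 1 in 20. Recurrence 1 held 4 of them: Ccl8 at 22704 (336.1 to 1263.3 in the other recurrences), Cxcl9 at 2640.6 (9.5214 to 114.2), Cxcr3 at 2359.6 (117.22 to 343.71) and Cxcr4 at 1283.3 (82.916 to 164.62). Cxcr2 was 461.06 in recurrence 2, with 7.3463 to 20.651 in the other recurrences, and Cxcl2 was 372.49 in recurrence 3, with 48.302 to 102.51 in the others. TI-K primary 6 had Cxcl13 at 162.75 (541.8 to 1356.5 in the other TI-K primaries) and Cxcl14 at 1355.6 (269.78 to 522.71). The rate of 1 in 20 assumes normal and independent values, and the share of such arrays over all genes was not computed. Recurrence 1, with 4 of the 8, was also the highest tumour for 14.8% of all genes. The 8 are thus not independent, and their count is no result about the members.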

How the results depend on the processing

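No paired analysis was possible because the labels give no replicate numbers shared between groups. Of 206 alternative counts of called members, 170 stayed within 1.5 times the value given. Between TI-KM and TI-K primaries the 1 call became 2 with the 3′/5′ ratio as covariate, 0 without the filter, 0 with an offset of 50, 4 with only the groups compared, 2 with the probe set of largest SD, 3 after quantile normalization, 0 in remaining arrays only, 0 with the sets as a block and 0 with the arrays of 1 shared title number averaged. Ccl28 was not among the 2 calls with the probe set of largest SD. Leaving out single arrays gave 0 to 3, with 0 without any of TI-K primaries 1 to 5 or TI-KM primaries 1 to 7 and 12. The call of Ccl28 itself was also lost without TI-K primary 6, 7 or 8. Between recurrences and TI-K primaries the 6 calls became 2 with the 3′/5′ ratio, 0 in remaining arrays only and 0 with the block. They ranged from 3 (without recurrence 2 or TI-K primary 5) to 12 (without recurrence 6). Between recurrences and the normal lung the 7 calls became 1 with only the groups compared and 4 with the probe set of largest SD, and 4 (without recurrence 2) to 8 with single arrays left out. Against the normal lung, the 6 calls of TI-K primaries became 10 with only the groups compared. The direction turned for Ccl20 (-0.30) and Ccr4 (-0.25) between recurrences and TI-K primaries in remaining arrays only, for Ccr4 with the block (-0.065), and for Ccr1 between recurrences and the normal lung with the probe set of largest SD (-0.25). The causes were not tested. Scaling to a common median moved the median of all genes for TI-K primaries against the normal lung to 0.13, where it had been -0.000882. The 13 calls between sets of TI-KM primaries ranged from 11 to 15 over alternatives chosen after seeing the data.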
